A study of Mus musculus with 12 samples.

Results

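The genes described here are 46 splicing factor genes of the SR, hnRNP and PRPF families, measured in sorted germ cells and somatic cells of the fetal mouse ovary at E15.5 (embryonic age in days). They were taken from the deposited count table as the protein-coding genes whose symbols begin with Srsf and a number, with Hnrnp or with Prpf and a number, together with Tra2a and Tra2b. This gave 46 of 22046 protein-coding genes and of 54532 genes in all, with 13 genes of the SR family (Tra2a and Tra2b included), 20 of the hnRNP family and 13 of the PRPF family. The 46 genes lie on 17 chromosomes. Of them, 21 overlap another annotated gene, 6 of these on the same strand (Hnrnpa3, Hnrnpk, Hnrnpm, Prpf39, Srsf4 and Srsf11), so that reads there may be shared. The 6 annotated pseudogenes named after these genes had 0 counts in every library. Copies annotated under other names were not looked for. All 46 passed the filter on low counts and were tested in every comparison.

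SR proteins bind exonic sequences and recruit the splicing machinery to nearby splice sites, largely through domains rich in arginine and serine. The hnRNP proteins coat nascent transcripts and often act against SR proteins, silencing exons or shifting the choice of splice site, and many also control mRNA export, stability and translation. PRPF proteins are parts of the spliceosome itself, several of them within the tri-snRNP that carries the U4, U5 and U6 small nuclear RNAs. Germ cells of both sexes are known for distinctive splicing programs, and fetal ovarian germ cells are in meiotic prophase I at the stage sampled here.

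Dexamethasone (dex), a synthetic glucocorticoid, was given to pregnant dams by daily intraperitoneal injection between E12.5 and E15.5 at 10 µg per gram, and control dams were given saline. All embryos came from the Tg(Pou5f1-EGFP)2Mnn strain, in which a Pou5f1 (OCT4) transgene drives green fluorescent protein (GFP) in germ cells. Ovaries were sorted into GFP+ germ cells and GFP- somatic cells, and ovaries of several litters were pooled for each library. There were 4 groups of 3 libraries: germ cells after saline, germ cells after dex, somatic cells after saline and somatic cells after dex. The GFP- fraction holds every other cell of the ovary, so that in these bulk libraries fewer cells of a type and less RNA per cell cannot be told apart.

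The 12 libraries held 14658503 to 18245507 counts each. The 8 germ cell markers summed to 2470 to 2990 CPM (the count scaled to the TMM-adjusted library size) in germ cells. In somatic cells they summed to 19.5 to 36.8 CPM. Among them Rec8 averaged 16.5 CPM in somatic libraries after saline, above its average of 4.87 CPM in the matching germ cell libraries. Dazl rose in somatic libraries from a mean of 1.17 CPM after saline to 12.8 CPM after dex. The part of carried-over germ cell RNA in the somatic sums was not tested. Across 10 markers of gonadal somatic cells, the median level in germ cells was 1.98% to 3.71% of the saline somatic level after saline and 1.38% to 5.06% after dex. The 4 erythroid markers, which the somatic fraction also held, summed to 7290 to 12300 CPM there after saline and 3290 to 16400 CPM after dex. Replicate 3 of the somatic dex group stood apart from its group, with a chi-square per gene of 16.3 and 21.8 against its 2 partners, where the other pairs of replicates gave 5.48 to 10.2. The calls and counts that rest on it are given with and without it. Since a library pools litters, the p-values below measure the spread between such pools.

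Levels of different genes were compared in FPKM (fragments per kilobase of exon, scaled to library size), since FPKM allows for gene length. None of the 46 genes was below 4.55 FPKM in any library. Together they took 1.14% to 1.26% of all counts in germ cells, 1.49% to 1.54% in saline somatic cells and 1.32% to 1.41% in somatic cells after dex. The 20 hnRNP genes summed to 1100 to 1180 FPKM in germ cells and 1770 to 2030 FPKM in somatic cells, and the 13 PRPF genes to 299 to 315 FPKM and 230 to 239 FPKM. The sums of the hnRNP genes and of the PRPF genes thus did not overlap between the cell types and stood in opposite order. The 13 SR genes summed to 646 to 718 FPKM in germ cells, 677 to 729 FPKM in saline somatic cells and 607 to 658 FPKM in somatic cells after dex.

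The leading hnRNP genes differed between the cell types, while the leading SR and PRPF genes were largely shared. In saline germ cells the highest hnRNP levels were those of Hnrnph1 (204 ± 19.7 FPKM, SD, n = 3), whose protein binds runs of guanine, Hnrnpa2b1 (116 ± 4.58 FPKM) and Hnrnpc (101 ± 5.48 FPKM), which binds runs of uridine. In saline somatic cells the order was headed by Hnrnpa1 (373 ± 23.5 FPKM), a well-studied repressor of exon inclusion, and its relative Hnrnpa0 (235 ± 20.4 FPKM), followed by Hnrnpa2b1 (168 ± 4.82 FPKM). Hnrnpa1 and Hnrnpa0 were only 19th and 20th among the 46 genes in saline germ cells. Among SR genes, Srsf2 (118 ± 9.94 FPKM), Srsf5 (115 ± 19.5 FPKM) and Srsf6 (92.9 ± 3.75 FPKM) led in germ cells, where Srsf2 and Srsf5 differed by less than their spread. Srsf5 (110 ± 7.63 FPKM), Srsf7 (105 ± 7.3 FPKM) and Srsf6 (95.7 ± 5.86 FPKM) led in somatic cells, and the libraries of each neighbouring pair overlapped. Prpf8, which forms the centre of the catalytic core, headed the PRPF genes in both cell types, at 89.1 ± 6.51 FPKM in germ cells and 56.8 ± 1.43 FPKM in somatic cells. It was followed by Prpf6 (32.8 ± 1.32 FPKM) and Prpf4b (25.2 ± 1.51 FPKM) in germ cells, and in somatic cells by Prpf19 (27.3 ± 0.962 FPKM) and Prpf6 (25.2 ± 1.05 FPKM).

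The comparison of germ cells with somatic cells after saline asked how the splicing factors differ between the cell types without drug. Of the 46 genes, 34 differed by edgeR's quasi-likelihood test at an adjusted p (Benjamini-Hochberg, BH) of at most 0.05, 14 of them higher and 20 lower in germ cells. That was 73.9% of the splicing factors, against 86.1% of the 17941 genes tested (43.1% higher and 42.9% lower). The median size of the log2 difference over the 46 genes was 0.5, against 1.6 over all genes tested and 1.18 over the 8594 genes at least as high as the lowest of the 46 (21.5 CPM on average). The typical splicing factor thus differed by less than the median gene, while Hnrnpa1, Hnrnpa0 and Hnrnpa3 differed by more.

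In GRCm38 coordinates, Hnrnpa1 lies at chr15:103240432-103246692 (plus strand), Hnrnpa0 at chr13:58125879-58128556 (minus strand) and Hnrnpa3 at chr2:75659261-75669407 (plus strand). All 7 genes of the hnRNP A/B and D group were lower in germ cells, with a median log2 difference of -1.32. Hnrnpa1 was at 42.4, 43.1 and 46.1 FPKM in the saline germ cell libraries and at 367, 352 and 398 FPKM in the saline somatic libraries. Every somatic library was far above every germ cell library, a difference of -3.13 ± 0.08 (log2, SE) or 8.77-fold (edgeR adjusted p = 3.29e-14). Hnrnpa0, which like Hnrnpa1 also binds mRNA regulatory elements, was at 34.5, 39.5 and 40.7 FPKM in germ cells and 219, 229 and 258 FPKM in somatic cells. The groups lay far apart there too, by -2.67 ± 0.09 or 6.36-fold (edgeR adjusted p = 6.82e-13). Hnrnpa3, a close relative of Hnrnpa1, had 24.5, 23.5 and 23.5 FPKM in germ cells and 123, 118 and 125 FPKM in somatic cells, and was 5.28-fold lower in germ cells (-2.4 ± 0.07, edgeR adjusted p = 1.29e-13). These 3 genes stood at 11.3%, 15.6% and 18.8% of their somatic level in saline germ cells. The 10 somatic markers ranged there from 0.576% (Col1a1) to 11% (Foxl2) of their somatic level, and Foxl2 reached 14.8% in 1 library. The part of carried-over somatic RNA in the germ cell levels of the 3 genes was not tested.

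The D group showed smaller differences in the same direction. Hnrnpd, whose protein (AUF1) binds AU-rich elements and speeds mRNA decay, was at 21.5, 21.4 and 22.6 FPKM in germ cells and 42.5, 41 and 44.2 FPKM in somatic cells (-1.01 ± 0.07, edgeR adjusted p = 1.94e-09). Its paralog Hnrnpdl was at 34.3, 34.2 and 36.1 FPKM against 83.6, 87.3 and 81.9 FPKM (-1.32 ± 0.07, edgeR adjusted p = 1.04e-10). Hnrnpab (-0.9 ± 0.09, edgeR adjusted p = 2.42e-07) and Hnrnpa2b1 (-0.58 ± 0.07, edgeR adjusted p = 1.49e-06), which packages nuclear RNA, were also lower in germ cells. All 7 genes remained lower and past the threshold in each of the 13 alternative analyses of these libraries, where the group's median ranged from -1.39 to -1.27.

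**Figure D1:**
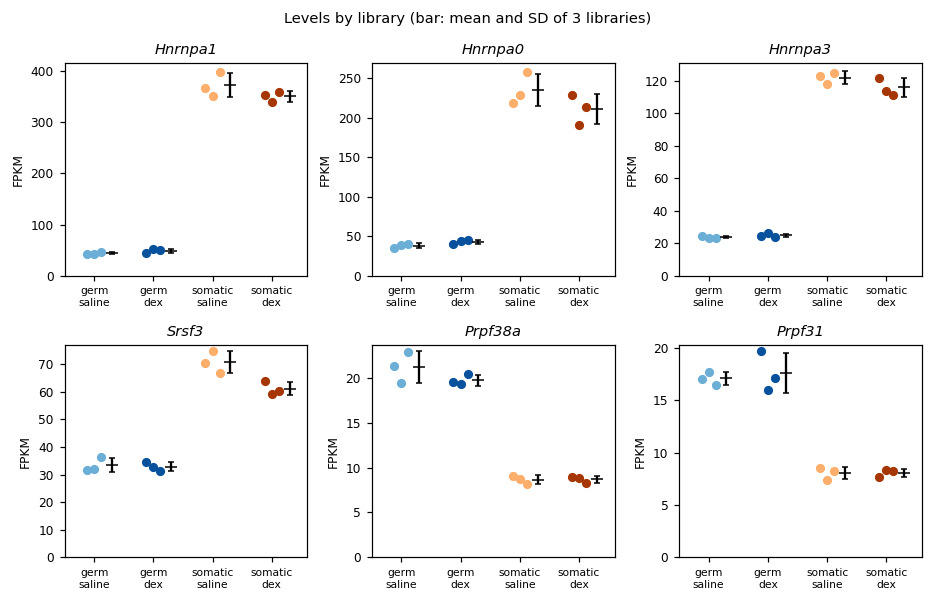
FPKM (y axis, linear, from 0) of 6 splicing factor genes in the 12 libraries, by group on the x axis, with 1 point per library and a bar for the mean and SD of 3 libraries. Hnrnpa1, Hnrnpa0, Hnrnpa3 and Srsf3 were lower in every germ cell library than in any somatic library, and Prpf38a and Prpf31 higher.

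The other hnRNP genes differed in both directions, by at most 0.76 on the log2 scale. Hnrnpm, which binds GU-rich intronic sequence, was at 41.5, 51.3 and 48.9 FPKM in germ cells and 75.4, 76.3 and 80 FPKM in somatic cells (-0.76 ± 0.08, edgeR adjusted p = 7e-07). Hnrnpl, a reader of CA repeats, differed by -0.75 ± 0.07 (edgeR adjusted p = 1.43e-07). Hnrnpk (a poly-C binding protein) and Hnrnpr were lower by smaller amounts, -0.49 and -0.46. Of the F/H genes, Hnrnpf (-0.5) and Hnrnph3 (-0.45) were lower and Hnrnph1 higher in germ cells (0.37 ± 0.09, edgeR adjusted p = 0.00113), while Hnrnph2 differed by -0.13 (2 SE interval -0.26 to 0). In the U group, whose founding member Hnrnpu organises chromatin-associated RNA, the direction was the opposite. Hnrnpul1 was at 49, 46.9 and 50.3 FPKM in germ cells and 27.8, 26.6 and 29.8 FPKM in somatic cells (0.75 ± 0.07, edgeR adjusted p = 1.01e-07), and Hnrnpu was higher by 0.23 ± 0.06 (edgeR adjusted p = 0.00453). Hnrnpc, Hnrnpll, Hnrnph2 and Hnrnpul2 did not pass the test, with differences between -0.13 and 0.13.

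All 6 PRPF genes grouped here with the tri-snRNP, Prpf18 included, were higher in germ cells, with a median log2 difference of 0.56. Prpf31 (chr7:3629985-3642486, plus strand), which binds the U4 small nuclear RNA particle and holds the tri-snRNP together, was at 17, 17.7 and 16.5 FPKM in germ cells and 8.56, 7.43 and 8.21 FPKM in somatic cells (1.03 ± 0.08, edgeR adjusted p = 7.13e-09). The lowest germ cell library thus lay well above the highest somatic library. Prpf4, a protein of the U4/U6 particle, was at 11.4 to 13.4 FPKM in germ cells and 7.63, 6.84 and 7.79 FPKM in somatic cells (0.7 ± 0.08, edgeR adjusted p = 1.97e-06). Prpf8 was at 95.7, 82.7 and 89 FPKM in germ cells and 58.4, 56.3 and 55.7 FPKM in somatic cells (0.6 ± 0.07, edgeR adjusted p = 1.65e-06). Prpf18, which acts in the later catalytic step, was higher by 0.52 ± 0.09 (edgeR adjusted p = 0.000101), Prpf6 by 0.33 ± 0.07 and Prpf3 by 0.24 ± 0.08 (edgeR adjusted p = 0.0165).

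The 7 other PRPF genes were divided, with 2 higher, 2 lower and 3 that did not pass the test. Prpf38a (chr4:108563172-108579336, minus strand), needed for activation of the spliceosome, had the largest difference towards germ cells of the 46 genes. It was at 21.3, 19.4 and 22.9 FPKM in germ cells and 9.08, 8.78 and 8.12 FPKM in somatic cells (1.24 ± 0.08, edgeR adjusted p = 1.39e-09). Prpf38b (-0.52 ± 0.07) and the ubiquitin ligase gene Prpf19 (-0.28 ± 0.07) were lower in germ cells (edgeR adjusted p = 3.92e-06 and 0.00219).

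In the SR family 3 genes were higher in germ cells, 5 lower and 5 did not pass the test, and the family's median was -0.08. Srsf3, the smallest SR protein and an adaptor of mRNA export, was at 31.8, 32.1 and 36.4 FPKM in germ cells and 70.3, 74.9 and 67 FPKM in somatic cells. It was the SR gene with the largest difference, -1.13 ± 0.08 (edgeR adjusted p = 3.22e-09). Tra2b, which promotes inclusion of exons with GAA-rich enhancers, was at 14.9, 15.6 and 15 FPKM against 23.7, 24.7 and 23.5 FPKM (-0.71 ± 0.07, edgeR adjusted p = 1.35e-07). Srsf7, a close relative of Srsf3, was at 72.9, 78.4 and 74.6 FPKM in germ cells and 110, 108 and 96.4 FPKM in somatic cells (-0.52 ± 0.07, edgeR adjusted p = 1.08e-05). Srsf4 and Tra2a were also lower in germ cells, by -0.68 and -0.5. Srsf9 went the other way, with 69, 68 and 72 FPKM in germ cells and 41.3, 36.2 and 46 FPKM in somatic cells (0.71 ± 0.08, edgeR adjusted p = 1.28e-06). Srsf12 (0.43 ± 0.13) and Srsf2 (0.37 ± 0.08) were higher as well (edgeR adjusted p = 0.00593 and 0.000432), while Srsf1, Srsf5, Srsf6, Srsf10 and Srsf11 differed by -0.09 to 0.08.

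The dex libraries, which the saline comparison did not use, gave like differences between the cell types. Of the 46 genes, 39 passed the test there, 17 higher and 22 lower in germ cells, a share of 84.8% against 84.3% of the 18171 genes tested (42% higher and 42.2% lower). Without replicate 3 of the somatic dex group 36 passed, 16 higher and 20 lower, beside 15535 of the 19029 genes tested (7943 higher). Across the 46 genes the log2 differences after saline and after dex had a Pearson correlation of 0.98, a description over genes that share libraries. The sign was shared by 43 genes, and 33 passed both tests in the same direction. Hnrnpa1 (-2.92 ± 0.09), Hnrnpa0 (-2.36 ± 0.09) and Hnrnpa3 (-2.29 ± 0.07) again had the largest differences, and Prpf38a (1.12 ± 0.07) and Prpf31 (1.06 ± 0.09) the largest in the other direction. Srsf7 was lower by 0.32 after dex (-0.32 ± 0.1, edgeR adjusted p = 0.0105), but the libraries of the cell types overlapped and the call was lost without somatic dex replicate 1 (adjusted p = 0.0639), germ cell dex replicate 2 (0.0861) or germ cell dex replicate 3 (0.104). The largest gap between the saline and dex differences was 0.47, for Prpf40b.

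**Figure D2:**
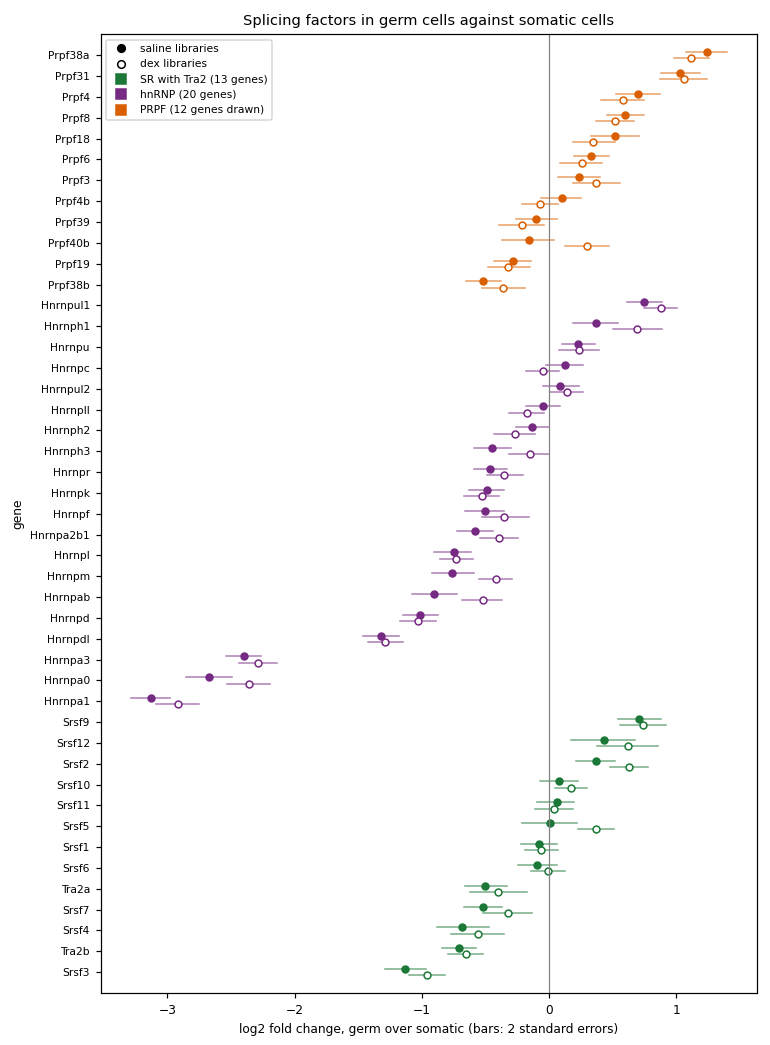
Log2 fold change of germ cells over somatic cells (x axis) for 45 of the 46 splicing factor genes (y axis), in saline libraries (filled points) and dex libraries (open points), with bars of 2 standard errors and colours for the 3 families. Hnrnpa1 (-3.13 after saline), Hnrnpa0 and Hnrnpa3 lie far to the left, and the tri-snRNP genes led by Prpf31 (1.03) lie to the right of 0.

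Promoter sequences are shown for genes on which these comparisons turn: Hnrnpa1 and Hnrnpa0 with the largest differences towards somatic cells, Prpf38a with the largest difference towards germ cells, and Srsf2, which was lower in somatic cells after dex (described further on). Each line gives the 250 bases before the RefSeq start on the strand of the gene, 5′ to 3′, from RefSeq GRCm38.p6, and the capitals mark CCAAT (or ATTGG on the other strand) and TATAAA.
Hnrnpa1, GRCm38 chr15:103240147-103240396, plus strand: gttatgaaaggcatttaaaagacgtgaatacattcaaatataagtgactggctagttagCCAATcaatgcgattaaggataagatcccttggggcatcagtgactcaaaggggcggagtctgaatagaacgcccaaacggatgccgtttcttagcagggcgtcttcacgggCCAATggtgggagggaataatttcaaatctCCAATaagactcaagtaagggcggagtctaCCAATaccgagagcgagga
Hnrnpa0, GRCm38 chr13:58128557-58128806, minus strand: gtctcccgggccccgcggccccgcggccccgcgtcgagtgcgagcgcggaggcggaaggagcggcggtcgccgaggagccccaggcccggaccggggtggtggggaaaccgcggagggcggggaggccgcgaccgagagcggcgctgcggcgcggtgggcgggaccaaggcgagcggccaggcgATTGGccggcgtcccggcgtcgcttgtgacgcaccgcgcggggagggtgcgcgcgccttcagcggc
Prpf38a, GRCm38 chr4:108579337-108579586, minus strand: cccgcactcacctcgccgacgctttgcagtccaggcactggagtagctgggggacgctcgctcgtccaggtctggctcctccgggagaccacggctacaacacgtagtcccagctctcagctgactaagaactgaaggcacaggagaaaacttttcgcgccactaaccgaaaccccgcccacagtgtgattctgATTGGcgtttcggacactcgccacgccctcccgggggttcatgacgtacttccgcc
Srsf2, GRCm38 chr11:116853095-116853344, minus strand: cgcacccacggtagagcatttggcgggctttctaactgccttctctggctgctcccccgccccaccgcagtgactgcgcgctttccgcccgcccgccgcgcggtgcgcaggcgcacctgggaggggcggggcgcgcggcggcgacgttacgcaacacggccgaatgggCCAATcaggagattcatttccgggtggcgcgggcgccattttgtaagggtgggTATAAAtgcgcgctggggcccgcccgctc

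Hnrnpa1 holds CCAAT at 4 places in this window, starting 191, 79, 49 and 19 bases before the start, while Hnrnpa0 holds ATTGG 66 bases and Prpf38a ATTGG 56 bases before it. Srsf2 holds CCAAT at 82 bases and TATAAA at 29 bases before the start. A RefSeq promoter of 300 bases (250 before and 50 after the start) was matched to 42 of the 46 genes, and Hnrnpll, Hnrnpul2 and Prpf18 were among those not matched. On either strand, CCAAT occurred in 23 of the 42 promoters (54.8%) against 37.4% of 32851 promoters, and it was in 12 of 18 hnRNP, 6 of 11 PRPF and 5 of 13 SR promoters. AGAACA, the core of the glucocorticoid receptor element, occurred in 3 of 42 (7.14%, in Hnrnpd, Srsf6 and Tra2a) against 19% of all. CCGGAAGT, bound by ETS factors, occurred in 6 (14.3% against 3.89%), TATAAA in 4 (9.52% against 13.6%), AAGATGGCG (YY1) in 1 (2.38% against 1.4%) and GCGCATGCG (NRF1) in 1 (2.38% against 1.75%). None of these 6 motifs holds another. The promoters of the splicing factors had a median GC content of 61.2% and a median of 27 CpG, against 52.7% and 7 over all promoters.

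The comparison of dex with saline in germ cells asked whether glucocorticoid exposure of the dam changed the splicing factors of fetal germ cells. None of the 46 genes passed edgeR's quasi-likelihood test, against 0.208% of the 16857 genes tested, and 7 (15.2%) had an unadjusted p under 0.05 against 11.6% of all genes. DESeq2 and limma on FPKM also called none. The log2 changes ran from -0.16 to 0.28 with a median of 0.02, against 0.01 over all genes tested. All 3 dex libraries lay above all 3 saline libraries for 4 of the 46 genes and below for 4, where 7.96% of all genes lay above and 9.4% below.

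The smallest unadjusted p was that of Hnrnpm. It was at 41.5, 51.3 and 48.9 FPKM after saline and 55.2, 55.6 and 58 FPKM after dex, so that all dex libraries were the higher ones (0.28 ± 0.08, edgeR adjusted p = 0.229). Hnrnpab was at 59.8, 66.4 and 65.9 FPKM after saline and 67.2, 74.8 and 80.7 FPKM after dex (0.23 ± 0.07, edgeR adjusted p = 0.26). Without the low-count filter 2 genes passed, both higher after dex, Hnrnpm (adjusted p = 0.0272) and Prpf40b. There 420 of all 33150 genes tested passed, 248 of them higher.

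Tra2b and Srsf7, which the study also measured in testis, differed little in these germ cells. Tra2b was at 14.9, 15.6 and 15 FPKM after saline and 14.3, 14.4 and 14.7 FPKM after dex, a change of -0.05 ± 0.06 (2 SE interval -0.16 to 0.07, edgeR adjusted p = 0.801). The dex libraries of Tra2b were all just below the saline libraries. Srsf7 was at 72.9, 78.4 and 74.6 FPKM after saline and at 86.9, 69.9 and 67.3 FPKM after dex, with the groups overlapping (0.01 ± 0.1, interval -0.18 to 0.21, edgeR adjusted p = 0.973). Without germ cell dex replicate 1, its highest library, the change was -0.14 (adjusted p = 0.506). In the SR family of 13 genes, 8 changes were positive and 5 negative, and none of the 13 had an unadjusted p under 0.05. The balance of signs turned with the setting, with 4 to 8 of the 13 negative over the alternatives. The hnRNP and PRPF families had 12 of 20 and 8 of 13 positive changes, with medians of 0.07 and 0.02. Over the alternatives 7 to 9 of the 20 hnRNP changes and 5 to 8 of the 13 PRPF changes were negative. The PRPF median ran from -0.05 to 0.04, and without germ cell dex replicate 1 it was -0.05 with 8 of 13 changes negative.

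The same comparison in somatic cells asked for the response of the surrounding ovary. There 2 of the 46 genes fell after dex and none rose, by edgeR's quasi-likelihood test. This was 4.35% of the splicing factors against 8.18% of the 16556 genes tested (4.81% higher and 3.36% lower). Srsf2 (chr11:116849901-116853094, minus strand), an SR protein that binds exonic enhancers and also acts at transcription, was at 87, 90.3 and 87.7 FPKM after saline and 79.2, 69.7 and 73.7 FPKM after dex. All dex libraries were below all saline libraries, and the change was -0.25 ± 0.06 or 1.19-fold lower (edgeR adjusted p = 0.0259). Prpf40b (chr15:99295087-99317018, plus strand) was at 18.8, 19 and 18.9 FPKM after saline and 16, 16.4 and 16 FPKM after dex, again without overlap (-0.23 ± 0.06, 1.17-fold lower, edgeR adjusted p = 0.03). Srsf2 overlaps 2 annotated genes and Prpf40b 1 annotated gene on the opposite strand, and whether the counting used strand is not given in the sources used here.

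The 2 calls depended on single libraries. Srsf2 kept its call without somatic dex replicate 1 (adjusted p = 0.0268) and without replicate 3, the library that stood apart (0.0244), and lost it without dex replicate 2 (0.112) or saline replicate 1, 2 or 3 (0.0668, 0.12 and 0.0599). Prpf40b kept its call only without dex replicate 3 (adjusted p = 0.0418), with 0.0556 to 0.124 in the other 5 cases. In all these cases the change stayed between -0.3 and -0.22 for Srsf2 and between -0.25 and -0.22 for Prpf40b. DESeq2 called 7 genes, all lower: Srsf2, Srsf3, Srsf5, Srsf6, Srsf7, Hnrnph1 and Prpf40b. A joint fit over all 12 libraries and limma on FPKM called none.

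Beyond these calls, the changes in somatic cells were mostly small and negative. Of the 46 changes 34 were negative, with a median of -0.08 against 0 over all genes tested, and the range was -0.25 to 0.11. All dex libraries lay below all saline libraries for 18 of the 46 genes and above for none, where 11.9% of all genes lay below and 13.5% above. Without dex replicate 3 there were 33 negative changes with a median of -0.08, and 18 genes lay below and 2 above, against 19.3% and 19.8% of all genes. The SR family accounted for 8 of the 18, and all 13 of its changes were negative with a median of -0.14. In the 13 alternative analyses 11 to 13 of the 13 SR changes were negative, with medians of -0.18 to -0.12, and without dex replicate 3 the count was 11 (median -0.15). The hnRNP genes had 17 of 20 negative changes (median -0.09), and the PRPF genes 4 of 13 (median 0.01). Across the same libraries the 6 macrophage markers went from 168 to 224 CPM after saline to 46.8 to 117 CPM after dex, the 4 endothelial markers from 276 to 317 CPM to 244 to 271 CPM and the 4 perivascular markers from 242 to 247 CPM to 265 to 346 CPM, with none of these markers at 0 in a whole group. Their part in these values was not tested.

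Srsf7 was at 110, 108 and 96.4 FPKM after saline and 95.6, 82.7 and 89.8 FPKM after dex in somatic cells. The dex libraries were the lower ones, but the change of -0.23 ± 0.07 did not pass the test (edgeR adjusted p = 0.0725, and 0.0394 without saline replicate 3). Tra2b was at 23.7, 24.7 and 23.5 FPKM after saline and 23.1, 20.3 and 21.7 FPKM after dex (-0.14 ± 0.06, edgeR adjusted p = 0.223). Srsf3, at 70.3, 74.9 and 67 FPKM after saline and 63.9, 59.2 and 60.4 FPKM after dex, had an adjusted p of 0.0696 by edgeR. Hnrnph1 was at 155, 164 and 142 FPKM after saline and 139, 128 and 124 FPKM after dex (-0.24 ± 0.07, edgeR adjusted p = 0.0595). Hnrnph3 had a like change of -0.21 ± 0.07 (edgeR adjusted p = 0.0747), while their relative Hnrnph2 changed by 0.04 (2 SE interval -0.1 to 0.17). In the tri-snRNP group the 6 changes lay between -0.04 and 0.1.

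**Figure D3:**
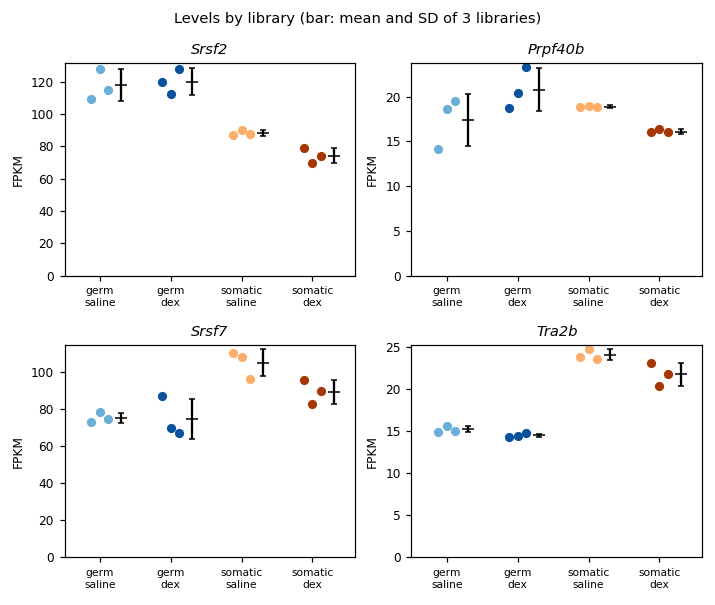
FPKM (y axis, linear, from 0) of Srsf2, Prpf40b, Srsf7 and Tra2b in the 12 libraries, by group on the x axis, with 1 point per library and a bar for the mean and SD of 3 libraries. The somatic dex libraries of all 4 genes lie below the somatic saline libraries, by 1.19-fold for Srsf2 and 1.17-fold for Prpf40b, which passed the test.

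Whether the response to dex differed between germ cells and somatic cells was tested as an interaction over all 12 libraries. None of the 46 genes passed edgeR's test of that difference, against 1.62% of the 19390 genes tested, and 10 (21.7%) had an unadjusted p under 0.05 against 15.4% of all genes. DESeq2 called 1 gene and limma on FPKM none. Over all genes 95 of 314 calls were positive (germ response above somatic response), and 123 of 266 with upper quartile scaling. Called or not, 9807 of the 19390 genes tested had a positive difference, with a median of 0.01. The differences of the 46 genes had a median of 0.1 and ran from -0.15 to 0.5. They were positive for 13 of 13 SR genes (12 or 13 of 13 in the 18 alternative analyses), 16 of 20 hnRNP genes and 4 of 13 PRPF genes, the last becoming 7 of 13 with upper quartile scaling. Without somatic dex replicate 3 the counts were 13, 16 and 5. These values share libraries with the comparisons within each cell type and are not independent of them.

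Prpf40b had the largest difference. It was at 14.2, 18.6 and 19.5 FPKM in saline germ cells and 18.7, 20.4 and 23.3 FPKM in dex germ cells (0.28 ± 0.11), beside its lower values in somatic cells after dex, and the difference of responses was 0.5 ± 0.14 (edgeR adjusted p = 0.0887). It passed with replicate number as a block (0.5, adjusted p = 0.0493), without the low-count filter (adjusted p = 0.00774) and without germ cell dex replicate 1 (0.57, adjusted p = 0.0427). Hnrnpm was at 75.4, 76.3 and 80 FPKM in saline somatic cells and 74.2, 71.9 and 69.9 FPKM after dex, beside its higher values in germ cells, with a difference of responses of 0.36 ± 0.1 (edgeR adjusted p = 0.0973). It passed by DESeq2 (adjusted p = 0.0407) and without germ cell saline replicate 2 (0.44, edgeR adjusted p = 0.042). Hnrnpab had a difference of 0.41 ± 0.12 (edgeR adjusted p = 0.114). For Srsf7 it was 0.23 ± 0.14 (2 SE interval -0.04 to 0.5, edgeR adjusted p = 0.451) and for Tra2b 0.08 ± 0.09 (interval -0.1 to 0.27, edgeR adjusted p = 0.711).

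**Figure D4:**
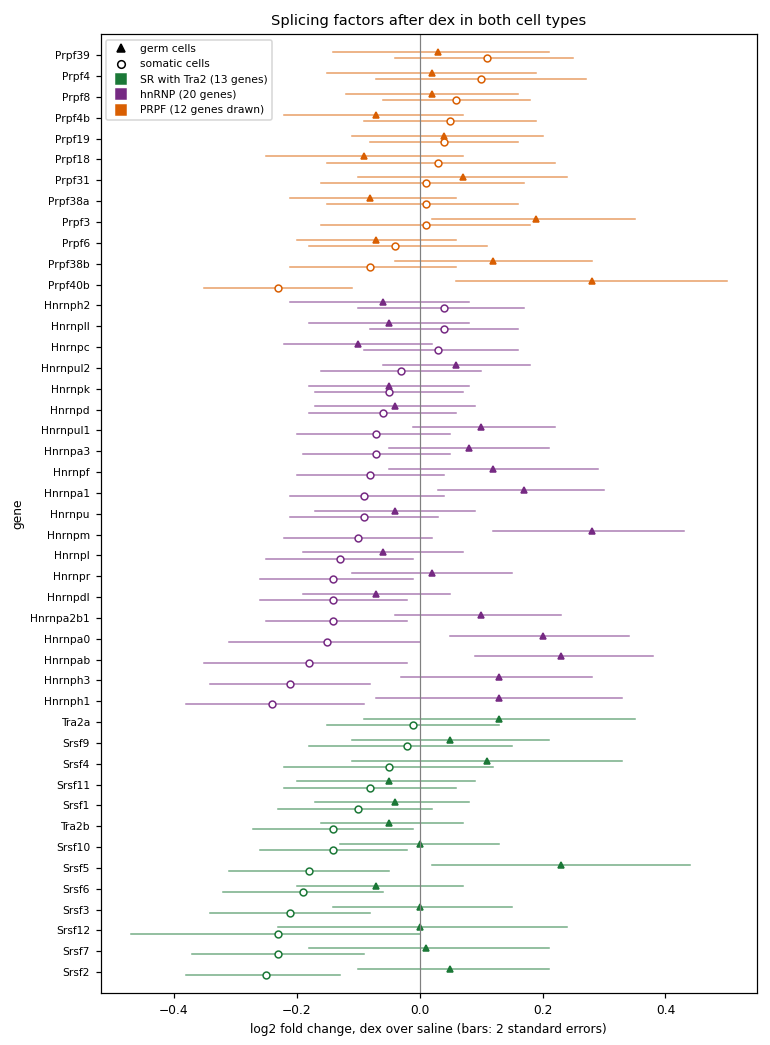
Log2 fold change of dex over saline (x axis) for 45 of the 46 splicing factor genes (y axis) in germ cells (filled triangles) and somatic cells (open circles), with bars of 2 standard errors and colours for the 3 families. The changes in somatic cells lie mostly to the left of 0, at a median of -0.08, and those in germ cells are spread around 0, at a median of 0.02.

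Related genes can stand in for each other, so the balance within 9 pairs was measured as the log2 ratio of their FPKM in each library. That value does not depend on the scaling of libraries, but it does depend on the exon lengths used for FPKM. In 8 of the 9 pairs the ratios of the 6 germ cell libraries did not overlap those of the 6 somatic libraries. The share over other pairs of genes was not computed. Since 86.1% of all genes tested differed between the cell types after saline, the count does not set these pairs apart. Prpf38a exceeded Prpf38b in every germ cell library, with ratios of 0.35, 0.27 and 0.52 after saline, and was below it in every somatic library, with -1.31, -1.4 and -1.43. In FPKM the more abundant gene of this pair was thus a different one in each cell type. The lead of Prpf38a in germ cells rests on the division by exon length. Before it, Prpf38a and Prpf38b averaged 111 and 112 CPM in saline germ cells and 105 and 121 CPM in dex germ cells. In saline somatic cells they averaged 47.4 and 161 CPM.

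In the other pairs the same gene led in both cell types in FPKM, by a different margin. Hnrnpl was 6.44-fold above Hnrnpll in saline germ cells and 10.5-fold in saline somatic cells. Hnrnph1 was 10-fold above Hnrnph2 in saline germ cells and 7.13-fold in somatic cells. Hnrnpa1 was 1.84-fold above Hnrnpa3 in saline germ cells and 3.05-fold in somatic cells. Srsf7 exceeded Srsf3 by 2.26-fold in saline germ cells and 1.48-fold in somatic cells, and Srsf6 exceeded Srsf4 by 13.8-fold and 9.17-fold. Hnrnpdl was 1.6-fold above Hnrnpd in germ cells and 1.98-fold in somatic cells, and Hnrnpul2 was 1.12-fold and 1.77-fold above Hnrnpul1. The exception was Tra2a over Tra2b, whose log2 ratios of 0.3 to 0.81 in germ cells overlapped those of 0.12 to 0.46 in somatic cells. The order within some of these pairs also rests on the division by exon length. Before it, Hnrnpul1 and Hnrnpul2 averaged 418 and 310 CPM in saline germ cells and 250 and 293 CPM in saline somatic cells. Tra2a and Tra2b averaged 143 and 139 CPM, and 203 and 229 CPM. Srsf3 was above Srsf7 in both cell types, at 262 and 170 CPM, and 576 and 247 CPM.

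**Figure D5:**
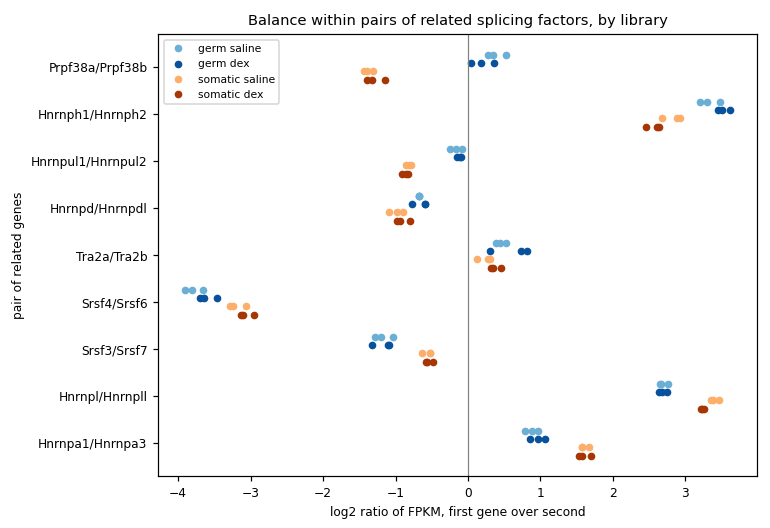
Log2 ratio of FPKM between the first and the second gene of 9 pairs (x axis, log scale by construction), with 1 point per library coloured by group. For Prpf38a over Prpf38b the germ cell libraries lie right of 0 (0.04 to 0.52) and the somatic libraries left of it (-1.43 to -1.14), and only Tra2a over Tra2b overlaps between the cell types.

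Other splicing genes were read from a list of 88, of which 87 could be tested between the cell types after saline. There 37 were higher in germ cells and 26 lower, 72.4% in all against 86.1% of all genes tested. The U5 partners of Prpf8 were among the genes that were higher. The helicase gene Snrnp200 was at 122, 114 and 114 FPKM in germ cells and 29.8, 27.5 and 28.6 FPKM in somatic cells (1.98 ± 0.07, edgeR adjusted p = 1.3e-12). The GTPase gene Eftud2 was higher by 1.42 ± 0.07 (edgeR adjusted p = 4.16e-11). Of the 20 Sm and snRNP genes 11 were higher and 3 lower. Among U2 and branch point genes (3 higher and 4 lower of 12), Sf1, which recognises the branch point, was lower by 1.23 (-1.23 ± 0.08) and Sf3b2 by 0.8 (-0.8 ± 0.07).

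The kinases that phosphorylate SR proteins were split. Srpk1 was at 22.3, 22 and 23.2 FPKM in saline germ cells and 7.93, 7.86 and 7.27 FPKM in saline somatic cells (1.5 ± 0.07, edgeR adjusted p = 2.86e-11). Clk1 was at 12.1, 10.9 and 11.4 FPKM against 33.2, 34.5 and 30.6 FPKM (-1.56 ± 0.08, edgeR adjusted p = 3.89e-11), so the members of the pair were ordered oppositely in the cell types. In all 3 of 7 kinases were higher and 2 lower. Of 10 SR-related coactivators 4 were higher and 1 lower, with Rnps1 at 0.84 ± 0.07 and Acin1 at -0.81 ± 0.07.

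The hnRNP proteins with other gene names included large differences in both directions, with 4 of 12 higher and 6 lower. Ptbp1, which represses exons flanked by pyrimidine tracts, was at 14.4, 12.1 and 13.8 FPKM in germ cells and 108, 110 and 112 FPKM in somatic cells (-3.08 ± 0.08, edgeR adjusted p = 5.07e-14). Its paralog Ptbp2 was at 54.5, 48.5 and 49.4 FPKM in germ cells and 12.2, 12 and 9.66 FPKM in somatic cells (2.12 ± 0.09, edgeR adjusted p = 1.39e-11). Rbmxl2 was at 32.2, 42 and 37.5 FPKM in germ cells and at 0, 0.254 and 0.12 FPKM in somatic cells. Of 26 regulators of tissue-specific splicing 12 were higher and 10 lower, and Elavl3 and Celf6, at 3.88 to 5.25 FPKM and 1.19 to 1.68 FPKM in germ cells, were below 0.07 FPKM in every saline somatic library.

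After dex, 1 of 84 other splicing genes passed in germ cells (1.19% against 0.208% of all genes) and 6 of 84 in somatic cells (7.14% against 8.18%). In germ cells it was Snrpe, a core Sm protein gene, at 70.2, 76.3 and 86.2 FPKM after saline and 46.6, 52 and 55.9 FPKM after dex (-0.57 ± 0.08, edgeR adjusted p = 0.015). The call was lost without germ cell dex replicate 2 (adjusted p = 0.0922) or saline replicate 3 (0.106). In somatic cells Khdrbs3 (-0.54 ± 0.11), Nova1 (-0.45 ± 0.13), Rbmx (-0.26 ± 0.06) and U2af1 (-0.22 ± 0.06) fell, and Celf2 (0.29 ± 0.06) and Mbnl2 (0.31 ± 0.07) rose (edgeR adjusted p between 0.00846 and 0.0455). U2af1, which reads the 3′ splice site, was at 89.2, 94 and 92.2 FPKM after saline and 80.7, 77.8 and 78.4 FPKM after dex, and it lost its call when any 1 of the 6 libraries was left out (adjusted p from 0.0597 to 0.196). Leaving out 1 library also took the call from Nova1 in 5 of 6 cases (up to 0.148), from Rbmx in 3 (up to 0.133), from Mbnl2 in 3 (up to 0.0768), from Khdrbs3 in 1 (0.0629) and from Celf2 in 1 (0.0576). Without somatic dex replicate 3 the adjusted p was 0.00326 for Celf2, 0.0219 for Mbnl2, 0.000564 for Khdrbs3, 0.0185 for Nova1 and 0.0301 for Rbmx, all still past the threshold.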

How the data were processed

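RNA from 12 libraries (3 per group) was sequenced as paired-end reads from poly-A RNA primed with random hexamers. Per the submitters' processing notes and the study's methods, the authors aligned reads to mm10 with HISAT2 2.0.5 and counted them with featureCounts 1.5.0-p3. They deposited gene counts and FPKM. The strand setting and the handling of reads with several matches are not given in the sources used here. The deposited comparison tables, with fold changes and p-values from the authors' DESeq2 1.20.0, were not used.

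Counts were tested with edgeR 4.0.16 (R 4.3.3; TMM scaling, filterByExpr with a minimum count of 10, quasi-likelihood test) over all genes, with Benjamini-Hochberg adjustment and a threshold of 0.05. The libraries compared entered each fit, and all 12 entered the interaction. Alternatives were DESeq2 1.42.0, 2 other scalings, no filter, a replicate block, 1 fit over all libraries, limma 3.58.1 on log2(FPKM + 0.1) and leaving out each library. The procedure was tested on simulated data. SE was the log2 fold change over the square root of F.

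The members and gene lists were chosen with earlier results of these data known. Named genes were Tra2b and Srsf7, the members called after dex (or the 3 of smallest p), the 8 called members most different in each direction between cell types, the 3 highest of each family, the pairs of related genes and up to 2 called genes of each other list. Further genes were named after their values were seen. Promoters came from RefSeq. The values of 1 of the 46 genes are not reported here, though counts over all members include it.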

Additional observations from a re-analysis of the deposited data

Results flagged for a closer look

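Among the other splicing genes, 2 of 88 differed between germ cells and somatic cells in their response to dex (2.27%, against 1.62% of all genes tested), and in both the test was the interaction over all 12 libraries. Snrpe, a core Sm protein gene, had a difference of responses of -0.69 ± 0.13 (log2, SE, edgeR adjusted p = 0.0118). It was at 70.2, 76.3 and 86.2 FPKM in saline germ cells and 46.6, 52 and 55.9 FPKM in dex germ cells, against 48.9, 45.1 and 40.5 FPKM and 46.4, 46.2 and 52.3 FPKM in somatic cells. The dex libraries were thus the lower ones in germ cells and overlapped the saline libraries in somatic cells.

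Celf2, a regulator of tissue-specific splicing, had a difference of -0.45 ± 0.09 (edgeR adjusted p = 0.0132). It was at 6.88, 6.51 and 6.72 FPKM in saline germ cells and 5.51, 6.16 and 6.13 FPKM in dex germ cells, against 6.7, 6.37 and 6.5 FPKM and 8.28, 7.98 and 7.6 FPKM in somatic cells. All dex libraries were below the saline libraries in germ cells and above them in somatic cells. Both calls held without any 1 of the 12 libraries (adjusted p up to 0.0477 for Snrpe and 0.0488 for Celf2), and by limma on FPKM the adjusted p was 0.0528 and 0.0623.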

How the results depend on the processing

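The number of the 46 splicing factors past the threshold after dex depended on the method, and the cause was not tested. In germ cells the count of 0 became 2 without the low-count filter. In somatic cells the count of 2 became 7 with DESeq2, 6 with upper quartile scaling, 5 without the filter, 0 in the fit over all 12 libraries and 0 with limma, and 0 to 2 when 1 library was left out. For the difference of responses the count of 0 became 1 with DESeq2, 4 without the filter, 1 with the replicate block (Prpf40b, adjusted p = 0.0493) and 0 to 2 when 1 library was left out. Between the cell types 33 to 36 genes passed after saline and 35 to 39 after dex in all alternatives. The change of Srsf7 in germ cells turned from 0.01 to -0.02 with limma and ran from -0.14 to 0.09 (with -0.01 and 0.00 among these) when 1 library was left out. Over all genes, the 35 calls among 16857 genes in germ cells became 158 of 33150 with DESeq2 and 420 of 33150 without the filter. They became 64 of 19390 in the fit over all 12 libraries, 9 of 23211 with limma and 17 to 81 without 1 library. The 1354 calls among 16556 genes in somatic cells became 1477 of 30416 with DESeq2 and 1389 of 16556 with upper quartile scaling. Without the filter they became 1946 of 30416. They became 803 of 19390 in the fit over all 12 libraries, 496 of 21777 with limma and 754 to 1881 without 1 library. The 314 calls of the difference among 19390 genes became 620 of 36214 with DESeq2 and 727 of 36214 without the filter. They became 173 of 24334 with limma and 143 to 384 without 1 library. Samples with the same replicate number had deviations correlated by 0 to 0.17 between treatments and 0.07 to 0.12 between cell types, and no label names a shared pool, so the numbers were not taken as pairs, although in the comparisons of cell types every sample correlated best with its own number. With the replicate block 0 splicing factors passed in germ cells and 2 in somatic cells. With 3 pooled libraries a group and 14658503 to 18245507 counts in each, log2 changes in germ cells as large as 0.28 (Hnrnpm and Prpf40b) did not pass the test. Leaving out libraries for Celf2 and Mbnl2, and the counts of signs and of overlap without somatic dex replicate 3, were chosen after seeing the data.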
